A study of Mus musculus with 6 samples.

Results

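The collagen chains of adult theca-lineage cells were taken as every probe set whose only gene symbol in the platform annotation was Col, a number, the letter a and a number. This gave 82 probe sets for 42 chains, among 45037 probe sets that included 18193 genes with a symbol of their own. The cells came from ovaries of female Gli1-CreERT2; Rosa-LSL-tdTomato mice of strain 129S6/SvEvTac at 2 months of age, in which tamoxifen permanently marks with tdTomato the cells that express the hedgehog target Gli1 at that moment. For mesonephros-derived cells tamoxifen was given before birth (E12.5, then E14.5, then E16.5). For ovary-derived cells it was given from postnatal day 1 to 3 by way of the lactating mother. The ovaries were dissociated with collagenase, sorted by tdTomato, and each group was measured on 3 arrays. Both alleles and tamoxifen are thus shared by all 6 samples, the marked cells are whatever expressed Gli1 at that time, and origin cannot be told apart from the age at labelling. Nothing in the labels ties the 3 samples of a group to separate animals, and p-values then reflect only how far these samples differ, possibly for technical reasons. Nor do the labels say whether the arrays hold only tdTomato-positive cells.

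Collagens are trimers of chains whose repeated glycine-containing triplets wind into a triple helix. Fibrillar collagens form the tensile fibres of connective tissue, type IV builds the sheet-like network of basement membranes, and the FACIT collagens (fibril-associated collagens with interrupted triple helices) sit on the surface of fibrils. In the ovary the theca is the vascularised, collagen-rich layer outside the basement membrane of the follicle.

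The mesonephros-derived arrays were less alike than the ovary-derived ones, with SDs around their group means of 0.48 to 0.67 log2 units against 0.21 to 0.26. Mesonephros-derived replicate 3 correlated at 0.95 with its nearest ovary-derived array and at 0.896 with its nearest array of the same group. Poly-A spikes, control transcripts that the standard protocol adds before amplification, were set relative to their mean on the ovary-derived arrays. They read 14.1, 13.3 and 2.27 in mesonephros-derived replicates 1, 2 and 3, and 0.627, 0.765 and 1.61 in ovary-derived replicates 1, 2 and 3. The 99th percentile of signal followed the same order of arrays, at 11739.8, 9725 and 8649.9 against 7519.9, 7623 and 8119. As a measure of RNA quality, the ratio of 3′ to 5′ Gapdh control signal came to 5.29, 3.48 and 2.63 against 1.94, 2.39 and 2.86, so that it overlapped between the groups and was highest in mesonephros-derived replicate 1. The part of these array differences in the collagen values below was not tested. Spike signal was entered in a fit below. It was higher on every mesonephros-derived array than on any ovary-derived one, so spikes and group cannot be told apart. Of the genes tested, 117 had a signal under 16 in mesonephros-derived replicate 1, against 38 and 5 in replicates 2 and 3 and at most 2 on an ovary-derived array. The labelled cell type was checked against its markers. Cyp17a1, the androgen-producing enzyme of theca cells, and the stromal genes Pdgfra, Tcf21 and Nr2f2 were above the floor defined next on all 6 arrays, while the 5 epithelial and 4 oocyte markers on the array did not pass it. The granulosa marker Foxl2 was also above it on every array, at 3434 to 5330. Markers of smooth muscle, pericytes, endothelium and macrophages passed as well and are given below. Cyp17a1 itself differed without overlap, at 3346, 10577 and 8689 in mesonephros-derived against 1413, 1304 and 619 in ovary-derived replicates 1, 2 and 3.

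Signals were compared as log2(signal + 16), with 1 probe set per gene, the one with the highest mean. A gene was tested if that mean was at least 99.4, the 40th percentile of all probe sets, here called the floor. Of the 42 collagen chains 33 passed, namely 8 of 11 fibrillar chains, all 6 type IV chains, 6 of 9 FACIT chains and 13 of 16 others. Every change below is mesonephros-derived minus ovary-derived, from a limma fit over all 11703 genes tested, with its standard error (SE) and a p-value adjusted over all those genes.

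No chain passed an adjusted p of 0.05, against 0.0342% of all genes tested that passed as higher and 0.00854% as lower, and the smallest adjusted p among the chains was 0.105 (limma). Of the 33 chains 23 had a change above 0, while 43.5% of all genes tested did. At an unadjusted p of 0.05, 11 chains were on the higher side and 1 on the lower side, where 6.46% and 7.22% of all genes were. The groups did not overlap for 13 chains on the higher side and 2 on the lower side, against 9.56% and 12.6% of all genes. Both counts of chains on the higher side include Col7a1, which passed the floor only through its mesonephros-derived signals. The median change was 0.68 for fibrillar, 0.63 for type IV, 0.46 for FACIT and 0.11 for other chains, beside a median of −0.082 over all genes tested. Of the tested chains 6 of 8 fibrillar, 5 of 6 type IV, 5 of 6 FACIT and 7 of 13 others had a change above 0, and the fibrillar and type IV medians were the highest of the 4 types. The counts above 0 and the medians also include Col7a1, and Col19a1, whose ovary-derived mean of 92.1 lay below the floor. On the lower side Col23a1, with a mesonephros-derived mean of 96.7, passed the floor only through its ovary-derived signals.

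**Figure D1:**
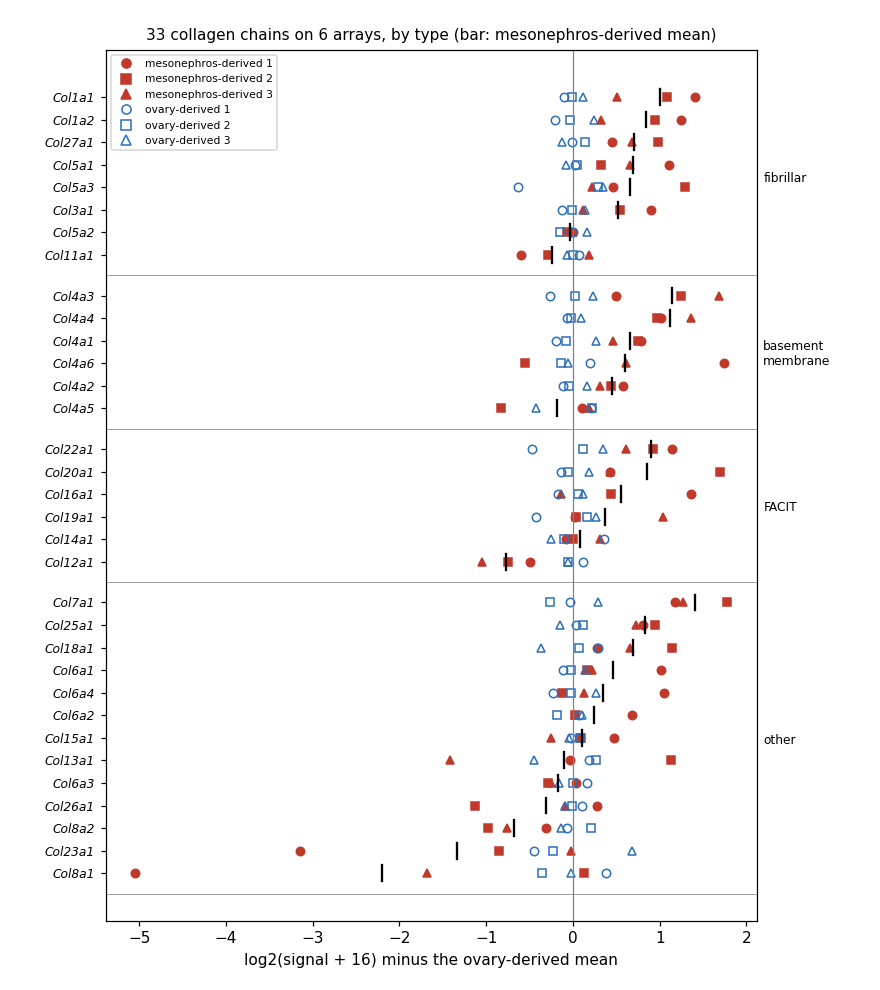
Each row is a collagen chain and each point its signal on 1 array, as log2(signal + 16) minus the mean of the 3 ovary-derived arrays; filled red symbols are mesonephros-derived, open blue symbols ovary-derived, and the black bar is the mesonephros-derived mean. Bars of 6 of 8 fibrillar and 5 of 6 type IV chains lie to the right of 0, while mesonephros-derived replicate 1 is far to the left for Col8a1 and Col23a1.

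The fibrillar group was led by type I collagen, the main fibre-forming collagen of connective tissue. Col1a1, which supplies most of the chains of the type I trimer, had signals of 24399.5, 19479.5 and 13019 in mesonephros-derived replicates 1, 2 and 3 and of 8534, 9133 and 9922 in ovary-derived replicates 1, 2 and 3. The groups did not overlap, and the mean was 2.00-fold that of ovary-derived cells (log2 change 1.00 ± 0.23 SE, limma adjusted p = 0.209). Its other probe set had signals of 21503, 14652 and 12889.8 against 6808, 7657 and 9380, a change of 1.02 ± 0.22. Both probe sets therefore placed replicate 1 highest and replicate 3 lowest within the mesonephros-derived group.

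Col1a2, the partner chain in type I collagen, had signals of 42132, 34274 and 22242 against 15384, 17276 and 21052, again without overlap, although mesonephros-derived replicate 3 stood only just above ovary-derived replicate 3. The change was 0.84 ± 0.24 (adjusted p = 0.259, limma), while its other probe sets gave 0.41 ± 0.20 and 0.047 ± 0.33. Within an array, Col1a1 stood below Col1a2 by 0.79, 0.81 and 0.77 log2 units in the mesonephros-derived replicates and by 0.85, 0.92 and 1.08 in the ovary-derived ones on the same scale. This difference between the chains moved by 0.16 between the groups (exact permutation test, two-sided p = 0.1, the smallest that 3 against 3 arrays allow, and 0.12 adjusted over the 6 chain pairs compared). The pairs were chosen after the values were seen, so these p-values are given as description only.

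Col3a1, the chain of type III collagen, which co-assembles with type I in soft tissue, had signals of 28224, 22065 and 16481 against 13899.5, 15068 and 16689.6. The highest ovary-derived array lay above mesonephros-derived replicate 3, so the groups overlapped, with a change of 0.52 ± 0.21 (adjusted p = 0.345, limma). Without mesonephros-derived replicate 1 the change was 0.33, and its second probe set stood at −0.034 ± 0.19.

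Col5a1, the type V chain that starts the assembly of type I fibrils, had signals of 12824, 7438 and 9446 against 6082, 6169 and 5643. Every mesonephros-derived array lay above every ovary-derived one, with a change of 0.70 ± 0.21 (adjusted p = 0.266, limma), but its other probe sets stood at 0.47 ± 0.34 and 0.068 ± 0.19 and overlapped. Col5a2, the chain that pairs with Col5a1, had signals of 2119.7, 2042 and 2133 against 2138, 1921 and 2387, and a change of −0.029 ± 0.19 that did not exceed the spread between arrays. Col5a3, a rarer chain of the same type, was dim at 149 to 332 against 75.8 to 164 and overlapped (0.66 ± 0.47).

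Col27a1, a fibrillar chain best known from cartilage, had signals of 1123, 1633 and 1326 against 813, 906 and 751. There was no overlap on either of its probe sets, which gave 0.70 ± 0.24 (adjusted p = 0.292, limma) and 0.68 ± 0.31. Col11a1, a type XI chain of thin fibrils, overlapped at 1002 to 1745 against 1455 to 1609 (−0.24 ± 0.25). Among the fibrillar chains, the differences without overlap thus belonged to Col1a1, Col1a2, Col5a1 and Col27a1.

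Stretches of promoter are shown for 3 chains with windows in the RefSeq promoter table (GRCm38.p6), which held 33 of the 42 chains. Col1a2 (chr6:4505468-4505617, plus strand) and Col3a1 (chr1:45311388-45311537, plus strand) are printed because they encode chains of types I and III and were both highest in mesonephros-derived replicate 1, and Col7a1 (chr9:108953436-108953585, plus strand) as a chain outside the fibrillar group whose groups did not overlap. Each line gives the 150 bases before the RefSeq start, 5′ to 3′, and capitals mark any of the motifs searched on either strand: the letters TATAAA of a TATA box, the letters CCAAT of a CCAAT box, and the letters GGGCGG of a GC box.
Col1a2: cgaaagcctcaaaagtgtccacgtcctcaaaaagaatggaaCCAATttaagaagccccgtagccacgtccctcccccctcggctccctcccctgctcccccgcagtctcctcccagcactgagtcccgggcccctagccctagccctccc
Col3a1: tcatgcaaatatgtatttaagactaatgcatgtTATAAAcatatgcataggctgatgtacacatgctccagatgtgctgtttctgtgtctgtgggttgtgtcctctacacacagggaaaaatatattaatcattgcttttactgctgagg
Col7a1: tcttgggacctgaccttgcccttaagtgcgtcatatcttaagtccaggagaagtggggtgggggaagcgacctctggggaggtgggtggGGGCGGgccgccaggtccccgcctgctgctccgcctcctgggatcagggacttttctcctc

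Within the 150 bases printed, each stretch holds a different motif. Col1a2 has a CCAAT 109 bases before its start, Col3a1 a TATAAA at 117 and Col7a1 a GGGCGG at 61. Further upstream, within 250 bases, Col1a2 also has GGGCGG at 205 and 188, and Col7a1 a CCAAT on the opposite strand at 249. Over the 250 bases before all 32851 starts in the table, TATAAA was found in 12.4%, CCAAT in 33.8% and GGGCGG in 32.7% of windows. Among the 36 windows of collagen chains the counts were 5, 13 and 21.

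Col4a4, a type IV chain, had the smallest p-value of all 33 chains. Its 6 genes lie in 3 head-to-head pairs, Col4a1 with Col4a2, Col4a3 with Col4a4 and Col4a5 with Col4a6, each pair being read outward in opposite directions. Col4a1 and Col4a2 make the network found in nearly all basement membranes, whereas Col4a3, Col4a4 and Col4a5 make a second network known above all from the kidney glomerulus. In these data Col4a3 and Col4a4 had the largest changes of the family, Col4a1 and Col4a2 smaller ones, and Col4a5 and Col4a6 overlapped between the groups.

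The promoter windows of 2 of these pairs are shown as 30 bases each, since the chains of each pair differed between the groups in the same direction. For Col4a1 the stretch is chr8:11312954-11312983 (minus strand, 157 to 128 bases before the start), and for Col4a4 it is chr1:82586850-82586879 (minus strand, the last 30 bases before the start). Capitals mark CCAAT on the opposite strand.
Col4a1: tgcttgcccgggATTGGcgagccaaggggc
Col4a4: gtggccagcagccctgcccagattaagcgg

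In the 250 bases before the start, CCAAT occurred in the windows of both Col4a1 and Col4a2, and none of the 3 motifs occurred in that of Col4a4.

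Col4a4 had signals of 4187, 4043 and 5348 in mesonephros-derived and of 1977, 2029 and 2198 in ovary-derived cells. All 3 mesonephros-derived arrays lay above all ovary-derived ones, with a 2.16-fold difference (1.11 ± 0.19 SE, limma adjusted p = 0.105, rank 24 of all genes tested). A second probe set had signals of 2353, 3225 and 4477 against 692, 1132 and 1082, a change of 1.76 ± 0.29, and the last one had 1195, 1611 and 2416 against 1046, 1140 and 1104, a change of 0.60 ± 0.27. None of the 3 probe sets overlapped between the groups, and mesonephros-derived replicate 3 was the highest on each. Col4a4 passed without mesonephros-derived replicate 1 (adjusted p = 0.0389) and when arrays were weighted by their noise (adjusted p = 0.00462), both in limma. In those fits 58 and 129 of all 11703 genes tested passed, against 5 in the main fit. Without ovary-derived replicate 1, 2 or 3 no chain passed. The smallest adjusted p among the chains was then 0.61, 0.49 and 0.48 in limma.

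Its head-to-head partner Col4a3 had signals of 663, 1128 and 1533 against 386, 475 and 551. The groups did not overlap, and the change was 1.14 ± 0.34 (adjusted p = 0.263, limma). Its second probe set gave 841, 402 and 873 against 315, 250.5 and 279 (1.20 ± 0.37), also without overlap. With array weights Col4a3 passed as well, among the 129 genes that did, at an adjusted p of 0.0298 in limma.

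Col4a1 had signals of 21539.7, 21077 and 17258 against 10989, 11904 and 15095, and its second probe set 23371, 15119.8 and 15232 against 10845, 11737 and 12842. Neither overlapped between the groups, with changes of 0.66 ± 0.18 (adjusted p = 0.246, limma) and 0.57 ± 0.20. Col4a2 had signals of 13698, 12431 and 11409 against 8442, 8860.5 and 10276, and a change of 0.45 ± 0.16 (adjusted p = 0.312, limma). On the reported probe set of both chains replicate 3 was the highest of the ovary-derived and the lowest of the mesonephros-derived arrays, so the gap between the groups was narrow.

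Col4a5 stood apart from its network partners. It had signals of 1611, 837 and 1706 against 1736, 1749 and 1119, a change of −0.19 ± 0.32, and its second probe set gave −0.013 ± 0.33. Col4a6 had signals of 991, 189 and 444 against 328, 257 and 272 (0.60 ± 0.53), and a second probe set pointed the other way at −0.64 ± 0.89. The value for Col4a6 rested on single arrays, at 0.032 without mesonephros-derived replicate 1 and 1.18 without replicate 2.

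The difference between Col4a4 and Col4a5 within an array was 1.37, 2.25 and 1.64 log2 units in mesonephros-derived and 0.19, 0.21 and 0.96 in ovary-derived cells, a shift of 1.30 without overlap. That between Col4a4 and Col4a1 shifted by 0.45 and did not overlap either, while that between Col4a3 and Col4a1 shifted by 0.48 with overlap. Exact two-sided permutation tests gave p = 0.1, 0.1 and 0.4, adjusted to 0.12, 0.12 and 0.4, and could not go below 0.1. The difference between Col4a2 and Col4a1 shifted by −0.22 without overlap (exact permutation test, two-sided p = 0.1, adjusted p = 0.12). All 6 pairs were chosen after the values were seen.

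**Figure D2:**
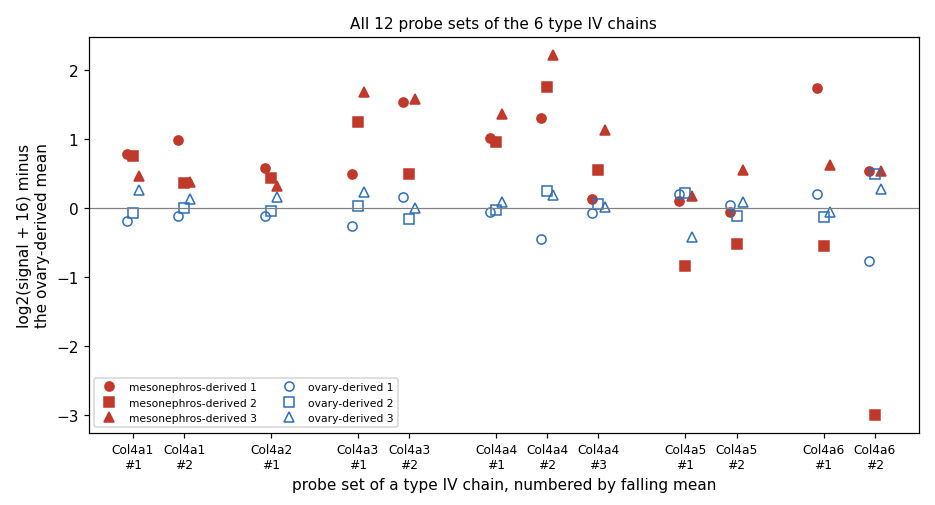
Each column is a probe set of a type IV chain, numbered within its gene by falling mean, and each point 1 array, as log2(signal + 16) minus the ovary-derived mean; filled red symbols are mesonephros-derived and open blue symbols ovary-derived. The 8 probe sets of Col4a1 to Col4a4 have all red symbols above all blue ones, and the 4 of Col4a5 and Col4a6 are mixed.

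Of the 6 FACIT chains tested 5 had a change above 0, but none of these passed even an unadjusted p of 0.05. Col12a1, a fibril-surface collagen of dense connective tissue, was the only chain of the 33 at an unadjusted p of 0.05 on the lower side. It had signals of 970.1, 812 and 655 against 1493, 1325 and 1317, without overlap, and a change of −0.77 ± 0.24 (adjusted p = 0.27, limma). Its other probe sets also pointed down but overlapped, at −0.37 ± 0.32, −0.19 ± 0.56 and −0.099 ± 0.45. Within an array Col12a1 stood below Col1a1 by 4.63, 4.56 and 4.28 log2 units in mesonephros-derived and by 2.50, 2.77 and 2.90 in ovary-derived cells. That shift of 1.77 between a FACIT and a fibrillar chain had no overlap (exact permutation test, two-sided p = 0.1, adjusted p = 0.12). Col1a1 was higher and Col12a1 lower, each without overlap, and the pair was chosen with the values seen. The outcome was thus fixed in advance and adds nothing to the changes of the 2 chains. The 6 differences stood in the order of the poly-A spikes, whose part in them was not tested.

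Col14a1, a close relative of Col12a1, was dim at 124, 132 and 167 against 174, 121 and 108, with a change of 0.075 ± 0.40. Its other probe sets stood at 0.46 ± 0.77, with 655 in mesonephros-derived replicate 1 and at most 134 elsewhere, and at 237, 115 and 293 against 65.4, 84.5 and 88. On the latter all ovary-derived arrays were below the floor, which gives only a bound of at least 1.88-fold higher against the floor. The probe sets of this gene thus do not give 1 answer. Col16a1, which is found near thin fibrils and basement membranes, had signals of 5361, 2825 and 1886 against 1843, 2163 and 2256 and a change of 0.55 ± 0.34, or 0.15 without mesonephros-derived replicate 1.

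Col22a1, known from the junction of muscle and tendon, had signals of 242, 206 and 163 against 68.3, 111 and 133 (0.89 ± 0.42, limma adjusted p = 0.383), without overlap. With the spike covariate it stood at 0.21, and averaged with its other probe sets, both below the floor, at 0.19. Col20a1 had 414, 1023 and 416 against 277, 294 and 348 (0.85 ± 0.40, adjusted p = 0.387), a value of 0.43 without mesonephros-derived replicate 2, and a probe set on the other side of 0 at −0.15 ± 0.43. Col19a1, a rare FACIT chain, overlapped at 91.9 to 201 against 62.9 to 111 (0.37 ± 0.48). The ovary-derived signals of Col22a1 and Col19a1 straddled the floor, and Col19a1 passed it only through its mesonephros-derived signals.

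Type VI collagen forms beaded filaments around cells from 3 main chains, which here differed in size of change. Col6a1 had signals of 16402, 9098 and 9414 against 7458, 8009 and 8920.3, without overlap (0.47 ± 0.24, limma adjusted p = 0.416), or 0.19 without mesonephros-derived replicate 1. Col6a2 had 13365, 8487 and 8460.2 against 8799, 7367 and 8993 (0.24 ± 0.21), or 0.021 without that replicate. Col6a3, the largest chain of the trimer, had 4799, 3846 and 3953 against 5266, 4702 and 4191 (−0.17 ± 0.18). Only Col6a1 of the 3 separated the groups, with mesonephros-derived replicate 1 far above the remaining arrays. Col6a4, an additional type VI chain of the mouse, stood at 0.35 ± 0.30, with its second probe set at −0.60 ± 0.35. Without mesonephros-derived replicate 1 its change was −0.0028.

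Col7a1, which forms the fibrils that anchor basement membranes to the stroma, had signals of 241, 375 and 259.6 against 95.5, 79.2 and 124. The groups did not overlap, with a change of 1.41 ± 0.39 (limma adjusted p = 0.246). Ovary-derived replicates 1 and 2 and the ovary-derived mean of 99.4 lay at or below the floor, so that Col7a1 was tested only through its mesonephros-derived signals. The size of its change is therefore uncertain, here and under the other settings, and is given as description only. It has a single probe set on this array. Col25a1, a transmembrane collagen, had 221, 247 and 209 against 123, 132 and 106 (0.83 ± 0.36, adjusted p = 0.362), without overlap. Its other probe set, which did not pass the floor, also separated the groups but in the opposite direction, at 15, 22.5 and 32.7 against 109, 131 and 49.6.

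Collagens XV and XVIII are proteoglycan-like collagens of the basement membrane zone that release anti-angiogenic fragments. Col18a1 had signals of 719, 1321 and 943 against 728, 622 and 455, a change of 0.69 ± 0.31 (limma adjusted p = 0.368), with its second probe set at 0.61 ± 0.42 and overlap on both. Col15a1 had 5785, 4452 and 3503 against 4096, 4393 and 4026, a change of 0.11 ± 0.21 within the spread between arrays.

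The type VIII collagens are short chains that form networks under endothelia and in vessel walls. Col8a2 had signals of 408, 251 and 295 against 485, 591 and 464, without overlap (−0.68 ± 0.32, limma adjusted p = 0.381). Col8a1 had 1.53, 617 and 165 against 736, 438 and 555, and its change of −2.20 ± 1.07 was −0.78 without mesonephros-derived replicate 1. A second probe set stood at 0.10 ± 0.55. The last one had signals of 55.1, 59.2 and 77.8 against 191, 198 and 122, and since all mesonephros-derived arrays were below the floor there, only a bound of at least 1.59-fold lower against the floor can be given. A value of 1.53 next to 617 in the same group leaves the brightest probe set of Col8a1 without a usable direction.

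The remaining tested chains overlapped. Transmembrane Col23a1 was near the floor at 7.1 to 185 against 133 to 312 (−1.34 ± 0.77), or −0.43 without mesonephros-derived replicate 1 and −0.29 on its second probe set. Col26a1 had 644 to 1734 against 1339 to 1527 (−0.31 ± 0.34), and transmembrane Col13a1 had 42.6 to 326 against 98 to 172 (−0.11 ± 0.64). The 9 chains that did not pass the floor were Col2a1, Col11a2, Col24a1, Col9a1, Col9a2, Col9a3, Col6a5, Col10a1 and Col17a1. Among them are Col2a1, Col10a1 and the 3 type IX chains, known from cartilage, and the highest single signal of the 9 was 242, for Col9a3.

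Of the 60 collagen probe sets above the floor, 40 had a change above 0. The groups did not overlap for 21 of them on the higher side and 3 on the lower side, against 8.82% of all 27022 probe sets above the floor on the higher side and 3366 of them on the lower side. Fitted as features of their own, no collagen probe set passed an adjusted p of 0.05 in limma, where 0.0148% of all probe sets did. At an unadjusted p of 0.05, 15 collagen probe sets were on the higher side and 2 on the lower side, against 5.79% and 7.06% of all probe sets. These counts include probe sets that passed the floor only through their brighter group. Among them are the Col7a1 probe set and 1 of Col14a1 on the higher side, and 1 of Col8a1 on the lower side. Of 20 chains with more than 1 probe set above the floor, 7 had at least 1 pointing the other way from the one reported. These were Col3a1, Col5a2, Col11a1, Col4a6, Col20a1, Col6a4 and Col8a1. Of these only Col20a1 had no overlap between the groups on its reported probe set.

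The arrays did not contribute evenly. Of the 33 chains, 17 were highest in mesonephros-derived replicate 1 among the mesonephros-derived arrays, 8 in replicate 2 and 8 in replicate 3, against 4129, 4014 and 3560 of all genes tested. Relative to the mean of the ovary-derived arrays, the fibrillar median was 0.68, 0.74 and 0.27 log2 units in replicates 1, 2 and 3, and −0.059 to 0.12 on the ovary-derived arrays. The type IV median was more even, at 0.68, 0.59 and 0.54 against −0.090 to 0.13. FACIT medians were 0.23, 0.24 and 0.37 against −0.15 to 0.15, and medians of other chains 0.28, 0.095 and −0.022 against −0.050 to 0.033.

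For 5 of the 33 chains (15.2%) the 6 arrays stood in exactly the order of the poly-A spikes, from ovary-derived replicate 1 as the lowest to mesonephros-derived replicate 1 as the highest, against 1.14% of all genes tested. These chains were Col1a1, Col1a2, Col4a1, Col4a2 and Col22a1. No chain stood in the opposite order, against 1.35% of all genes. Col4a3 and Col4a4 did not stand in this exact order, since mesonephros-derived replicate 3, with the lowest spikes of its group, gave their highest signals. Like the spikes, their reported probe sets were higher on every mesonephros-derived array than on any ovary-derived one. They also rose from ovary-derived replicate 1 to 3 as the spikes did. The part of the spikes in these changes was not tested.

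**Figure D3:**
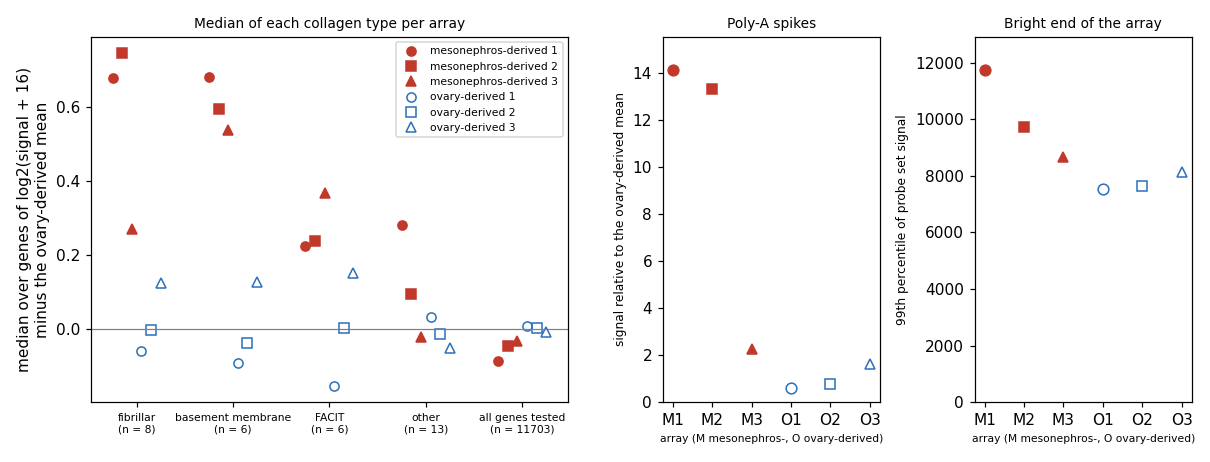
The left panel plots, for each array, the median over the tested chains of a collagen type of log2(signal + 16) minus the ovary-derived mean, beside the same over all 11703 genes; the middle panel plots poly-A spike signal relative to the ovary-derived mean and the right panel the 99th percentile of probe set signal. Fibrillar medians are 0.68, 0.74 and 0.27 in mesonephros-derived replicates 1, 2 and 3, where the spikes read 14.1, 13.3 and 2.27.

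The size of several changes depended on how arrays were brought to a common scale. Quantile normalization, which gives every array the same distribution of signal, left several chains within 0.2 of 0: Col1a2 stood at 0.0052, Col4a1 at 0.074, Col4a2 at 0.0025, Col6a1 at 0.049 and Col3a1 at −0.18. Col1a1 stood at 0.46 and Col5a1 at 0.39. Under the same normalization Col4a4 stood at 1.06, Col4a3 at 1.21, Col7a1 at 1.51, Col27a1 at 0.76 and Col12a1 at −0.73, close to their values without it. Spike signal separated the groups without overlap, so a fit with it as a covariate cannot divide a change between spikes and group. Such a fit had 303 genes at an unadjusted p of 0.05 in limma, against 1601 in the main fit. When spike signal entered the model as a covariate, Col1a1 stood at 0.20 ± 0.24, Col1a2 at −0.083 ± 0.20, Col3a1 at −0.16 ± 0.23 and Col4a1 at 0.18 ± 0.21. In that fit Col4a4 stood at 1.41 ± 0.32, Col4a3 at 1.75 ± 0.62, Col7a1 at 1.05 ± 0.71 and Col12a1 at −1.13 ± 0.43, and no chain passed (smallest adjusted p = 1.00 in limma). Col1a1, Col1a2, Col3a1, Col4a1, Col4a2 and Col6a1 were thus smaller in change, or turned, under both settings. Col15a1 (−0.075 and −0.39) and Col6a2 (−0.15 and −0.14) also turned under both. Under quantile normalization and the spike covariate Col18a1 stood at 0.78 and 0.93 ± 0.60 and Col25a1 at 0.90 and 0.78 ± 0.66. Col27a1 stood at 0.76 and 0.76 ± 0.46, and Col8a2 at −0.65 and −0.74 ± 0.59. These values lay near those as deposited, but with wide SEs in the covariate fit.

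**Figure D4:**
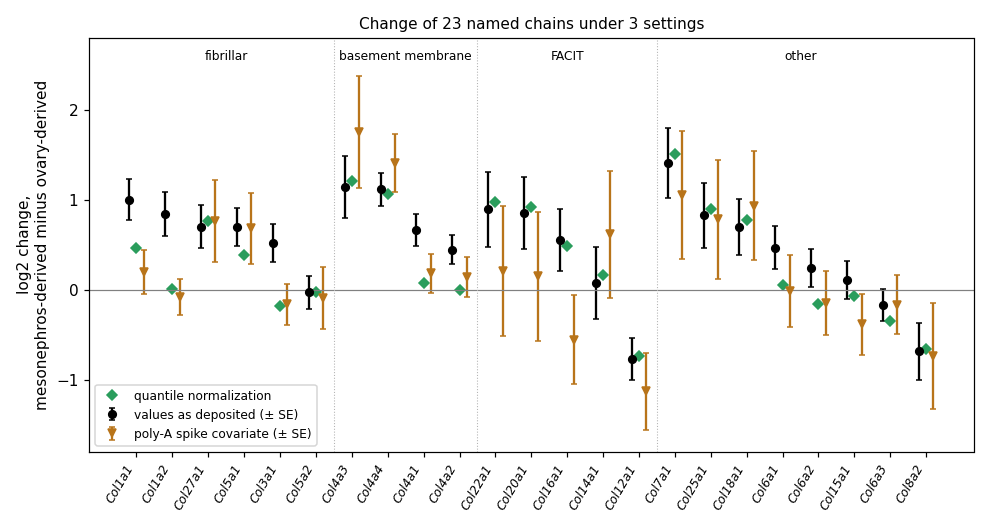
The log2 change, mesonephros-derived minus ovary-derived, of 23 chains grouped by type, with values as deposited (black circles ± SE), after quantile normalization (green diamonds) and with spike signal in the model (brown triangles ± SE). Col1a2 moves from 0.84 to 0.0052 and −0.083, while Col4a4 stays at 1.11, 1.06 and 1.41.

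Genes that make and finish collagen were followed beside the chains. Of 21 genes for hydroxylation, folding and export, all tested, none passed an adjusted p of 0.05 in limma, 11 had a change above 0 and the median was 0.032, with 3 higher and 1 lower at an unadjusted p of 0.05, against 6.46% and 7.22% of all genes tested. Serpinh1, the collagen-specific chaperone, had signals of 28028, 20994 and 16252 against 11281, 13432 and 13275, without overlap (0.75 ± 0.21, adjusted p = 0.252, limma), and stood at 0.10 after quantile normalization and at 0.11 on its other probe set. Plod2, a lysyl hydroxylase that prepares collagen for cross-linking, had 4633, 6222 and 6687 against 3292, 3846 and 3448, also without overlap (0.71 ± 0.19, adjusted p = 0.246), and stood at 0.57 after quantile normalization and at 0.45 on its other probe set. P3h2, a prolyl 3-hydroxylase that acts on type IV collagen, had 920, 777 and 703 against 1401, 1097 and 1160.4 (−0.60 ± 0.23, adjusted p = 0.335), without overlap. Mia3, which loads procollagen into carriers at the endoplasmic reticulum, overlapped at 1824 to 5335 against 1295 to 1926 (0.84 ± 0.37, adjusted p = 0.362), with other probe sets from −0.37 to 0.84 and a value of 0.40 without mesonephros-derived replicate 2.

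Of the enzymes that trim and cross-link collagen outside the cell, 9 of 10 tested had a change above 0, beside 43.5% of all genes tested, with a median of 0.42. At an unadjusted p of 0.05, 3 were higher and 0 lower, against 6.46% and 7.22% of all genes. Tgm2, a transglutaminase that cross-links matrix proteins, had signals of 14449, 9628 and 8481 against 6636, 6248 and 5604, without overlap (0.78 ± 0.22, limma adjusted p = 0.246). It stood at 0.43 after quantile normalization and at 0.20 to 0.67 on its other 4 probe sets. Loxl3, a lysyl oxidase, had 3122, 1660.1 and 2119.8 against 1276, 1040.1 and 1481, without overlap (0.82 ± 0.27, adjusted p = 0.288). Bmp1, the protease that removes the C-propeptide of fibrillar procollagens, had 1182, 1755 and 1042 against 880.1, 795 and 864 (0.60 ± 0.26, adjusted p = 0.359), without overlap, or 0.39 without mesonephros-derived replicate 2, and its other probe sets stood at 0.058 and 0.27. Lox, the founding lysyl oxidase, overlapped at 389 to 1636 against 292 to 629.9 (0.81 ± 0.51, adjusted p = 0.492), or 0.28 without mesonephros-derived replicate 1, and its other probe set stood at 0.18. None of these 10 genes passed an adjusted p of 0.05.

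Among 7 tested collagen receptors 4 had a change above 0, the median was 0.060 and none passed in limma, with 1 higher and 0 lower at an unadjusted p of 0.05, against 6.46% and 7.22% of all genes tested. Itga1, the integrin subunit that binds type IV and other collagens, had signals of 1054, 2006 and 2208 against 794, 728 and 826. All mesonephros-derived arrays were above all ovary-derived ones, with a change of 1.08 ± 0.30 (adjusted p = 0.246, limma) and 0.90 on its other probe set. Without mesonephros-derived replicate 1, and with array weights, Itga1 passed, where 58 and 129 of all genes tested did. Its partner Itgb1 overlapped with a change of −0.43 ± 0.22, while its other probe sets ranged from −0.60 to 0.66. The adhesion receptor Adgrg1 stood at −0.98 ± 0.73 and the discoidin receptor Ddr2 at 0.20 ± 0.22, both with overlap. Without mesonephros-derived replicate 3, where its signal was 10.2, Adgrg1 stood at −0.13.

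Markers of other cell types were read on the same arrays. All 8 smooth muscle markers tested were on the higher side, 2 of them past an adjusted p of 0.05 in limma. Of all 11703 genes tested, 5091 had a change above 0 and 6612 below 0, and 0.0342% passed as higher. The summed smooth muscle signal was 67724 to 85147 in mesonephros-derived against 28635.5 to 32281.5 in ovary-derived cells. Summed pericyte markers, 6 of 6 on the higher side, ranged from 26150.5 to 37737 against 19020.2 to 25473. Of these Pdgfrb, Cspg4, Abcc9 and Kcnj8 overlapped, with changes of only 0.027 to 0.28. After quantile normalization Pdgfrb stood at −0.10 and Abcc9 at −0.056, while Rgs5, the brightest, moved from 0.83 to 0.37. Endothelial markers, whose cells rest on type IV collagen, had a change below 0 for 7 of 8 tested, with sums of 3624 to 6009 against 5388 to 8799. Macrophage markers had a change below 0 for 5 of 5, with sums of 383 to 5095 against 3167 to 4535. The endothelial markers Robo4, Kdr and Pecam1 and the macrophage marker Adgre1 passed the floor only through their ovary-derived signals. The filter thus set part of both counts below 0. The endothelial and macrophage sums overlapped between the groups, and no pericyte, endothelial or macrophage marker passed in limma. Granulosa markers summed to 4765 to 6457 across all arrays. Of the 6 on the array 3 were tested and overlapped between the groups. These were Foxl2 at 3434 to 5330, Inha at 529 to 1352 and Hsd17b1 at 125 to 363. Fshr was below the floor on every array. In sorted cells measured in bulk, fewer cells of a type and less RNA per cell cannot be told apart, and the part of these cell types in the collagen values was not tested.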

How the data were processed

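The authors deposited 1 linear intensity per probe set and array, and MAS5 is the tool named in the submitters' processing notes, with no version or settings stated there. Every deposited array had a mean of 500 after trimming 2% at each end, so arrays were already scaled. Tests excluded 64 control probe sets. Intensities were moved to log2(signal + 16), which understates changes of dim genes, and each of 18193 genes with 1 symbol was represented by its brightest probe set; 932 probe sets with several symbols and 9160 unnamed ones named no gene. All 42 collagen symbols matched a RefSeq gene by identifier. The fit used limma 3.58.1 under R 4.3.3 (eBayes with an intensity trend) on the 11703 genes above the floor, with Benjamini-Hochberg adjustment; the script was tested on simulated data. Precision is limited by having 3 arrays a group. Same-numbered arrays of the groups were not paired (correlations of deviations −0.010 to 0.071, none above 0.1).

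The chains, gene lists and tests were chosen with earlier results of these data known. Described in full are the up to 4 chains of each type with the smallest p and 14 chains always named (Col1a1, Col1a2, Col3a1, Col5a1, Col5a2, Col4a1, Col4a2, Col6a1, Col6a2, Col6a3, Col12a1, Col14a1, Col15a1, Col18a1), and up to 4 genes of each list of collagen processing and receptor genes; others follow for completeness. Luteal markers did not pass the floor, and of erythroid markers only Alas2 did, at −0.55.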

Additional observations from a re-analysis of the deposited data

How the results depend on the processing

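Among the 19 alternatives no setting made a chain pass on the lower side. Array weights let 2 chains pass on the higher side (Col4a3 and Col4a4) and 1 processing or receptor gene (Itga1), and leaving out single arrays let 0 to 1 pass of each. With array weights 129 of all 11703 genes passed, and without mesonephros-derived replicate 1 58 did, against 5 in the main fit. Of the 23 chains described in full, 13 kept their sign under every alternative in which they were tested; Col7a1, Col14a1, Col22a1 and Col25a1 did not pass a floor at the 60th percentile. With the replicate number as a block, 0 chains passed and the smallest adjusted p was 0.153 in limma. Quantile normalization moved the medians to 0.20 (fibrillar), 0.35 (type IV) and −0.074 (other), and turned Col15a1 to −0.075, Col3a1 to −0.18 and Col6a2 to −0.15. Averaging each gene's probe sets gave medians of 0.40, 0.53, 0.26 and −0.13 for fibrillar, type IV, FACIT and other chains, with Col25a1 at −0.32 and Col5a2 at 0.059. Taking every probe set gave 0.47 for fibrillar and 0.22 for FACIT chains. Leaving out probe sets named _x_at or _s_at gave 0.22 for FACIT chains and −0.15 for Col20a1. Array weights gave −0.11 for other chains, −0.11 for Col15a1 and 0.039 for Col5a2, and median centring gave 0.050 for Col5a2. With the poly-A spike covariate the medians were 0.058 (fibrillar), 0.18 (FACIT) and −0.14 (other), and the signs of Col15a1 (−0.39), Col16a1 (−0.56), Col1a2 (−0.083), Col3a1 (−0.16), Col6a1 (−0.015) and Col6a2 (−0.14) turned. Without single arrays the medians ranged from 0.54 to 0.75 (fibrillar), 0.49 to 0.85 (type IV), 0.34 to 0.55 (FACIT) and −0.078 to 0.35 (other), and Col14a1 from −0.051 to 0.26, Col15a1 from −0.078 to 0.28 and Col5a2 from −0.11 to 0.050. Pseudocounts of 1 and 64, no floor, a floor at the 60th percentile and eBayes without the trend moved none of these medians beyond the spread between replicates. Beyond the settings' own construction, the cause of these shifts was not tested.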
